A study of Mus musculus with 27 samples.

Results

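Epiblastoids are spheroids that mouse embryonic stem cells (mESCs) form when they leave the naive state inside Matrigel, a gel of basement membrane proteins, and EpiLCs are the cells that the same passage gives in flat culture. The comparison described here sets the 1 library of Epiblastoids on day 2 against the 2 libraries of EpiLCs at 48 h (EpiLCs replicate 1 and EpiLCs replicate 2). Both were wild type and both were kept in the same N2B27 medium, to which Activin A (20 ng/ml), bFgf2 (12 ng/ml) and KSR (1%) were added, and the growth protocols differ in the Matrigel alone. The paper's text names CMTI-1 as the mESC line put into Matrigel, while the line and plate coating of the EpiLC libraries are not given in the sources used here. Line, day of preparation and culture form therefore cannot be told apart. Genes were chosen by 1 rule: the spheroid library had to lie outside the range of both EpiLC libraries on the scale log2(FPKM + 1), where FPKM counts fragments per length of transcript and per size of library. Of 23604 genes in all, 11203 were compared because at least 1 of these 3 libraries held 1 FPKM or more, and 12401 stayed under that level. The spheroid lay outside the EpiLC range in 7656 genes. With 1 spheroid library no test is possible, so all differences between day 2 and EpiLCs are descriptions of these 3 libraries.

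During the exit from naive pluripotency, cells lose factors such as Esrrb and Klf2 and gain formative genes such as Otx2, Fgf5 and Dnmt3b. In a gel of laminin and collagen IV the same cells polarize around a common centre and open a lumen, while flat cells hold on to a rigid surface through integrins and focal adhesions. A pair of stress programs recurs below. Hypoxia-inducible factors (HIFs) are transcription factors that prolyl hydroxylases mark for degradation while oxygen is plentiful and that switch on angiogenic, glycolytic and mitophagy genes when it is scarce. Atf4 is a transcription factor whose translation rises when cells lack amino acids or carry unfolded protein, and it switches on amino acid synthesis and import.

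The 3 libraries were alike in scale. FPKM summed to 350693 on day 2 and to 320918 and 383760 in the EpiLC libraries, and 10658, 10553 and 10639 genes reached 1 FPKM. Read counts are not in the table, so the depth behind a value is unknown. The pluripotency factor Pou5f1 was at 552 FPKM on day 2 and at 392 and 732 in EpiLCs. The formative gene Dnmt3b was at 724 against 629 and 693, Otx2 at 62.8 against 50.8 and 51.6, and Fgf5 at 63.4 against 44.0 and 54.1. Markers of other cell types were compared next. Of 22 fibroblast genes 6 were compared, with a summed level of 48.4 FPKM on day 2 and 66.1 and 64.1 in EpiLCs. Of these, 4 were below both EpiLC libraries and 1 above. By the rule given below 1 was called lower, beside 1.16% of all genes. This gene, Dcn (decorin), was at 0.65 against 4.48 and 6.10, and Postn, S100a4, Mgp, Fap and Dpt were listed at 0 in all 3 libraries. Of 17 endoderm genes 4 were compared, with sums of 292, 289 and 312, most of which came from Rhox5, at 239 FPKM against 247 and 265, and Sparc, at 48.2 against 36.4 and 41.9, while Ttr was listed at 0. Of 11 trophoblast genes 2 were compared, and Tpbpa was listed at 0. By the same rule 1 of the 2 was called higher, beside 0.848% of all genes. This gene, Eomes, is also in the list of primed cells and the primitive streak, and its levels are given there. The other, Ascl2, was at 1.92 FPKM against 2.37 and 2.97. Of 12 hematopoietic genes 3 were compared, 2 were above both EpiLC libraries and 0 were called, with sums of 13.5, 14.5 and 10.9. In bulk RNA, fewer cells of a type and less RNA per cell cannot be told apart.

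Most genes lay outside the EpiLC range by a small distance. Day 2 was above both EpiLC libraries in 3941 genes and below both in 3715, which together are 68.3% of the genes compared, and it lay inside the range in 3547. The median difference between day 2 and the EpiLC mean was 0.0088 on the log2 scale over all genes compared, so neither direction prevailed. A stricter rule was therefore used for what is called higher or lower below, namely a distance of at least 1 on the log2 scale (2-fold) to the nearer EpiLC library. By that rule 95 genes were higher on day 2 (0.848% of those compared) and 130 were lower (1.16%). The EpiLC libraries differed from each other by this much in 485 genes, or 4.33%, and day 2 differed from replicate 1 in 561 genes and from replicate 2 in 698. Cdh24 was the last gene inside the threshold on the higher side, at a distance of 1.01, with Rbm4b just outside at 1.00. On the lower side Chchd10 was just outside, at 102 FPKM against 244 and 204. The counts depend on both EpiLC libraries, since with 1 of them the range has no width: without replicate 1 they were 302 higher and 396 lower, and without replicate 2 they were 338 and 223.

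**Figure D1:**
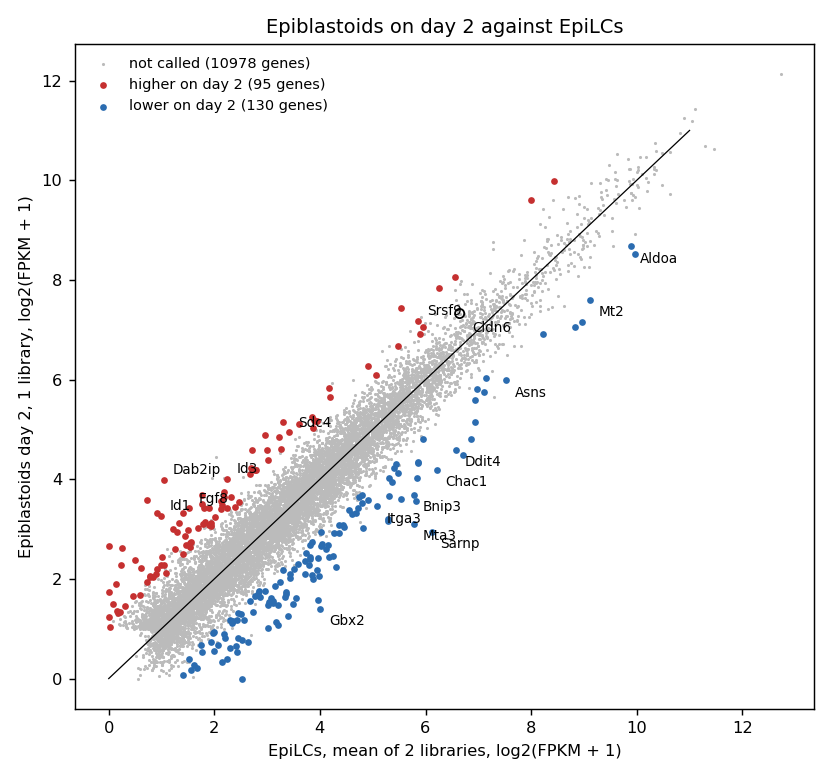
Each point is 1 of 11203 genes, with the mean of the 2 EpiLC libraries on the x axis and the single Epiblastoid library of day 2 on the y axis, both as log2(FPKM + 1), and the line marks equal levels. The 95 genes called higher (red) and 130 called lower (blue) lie on either side of the line, and Cldn6 (open circle) lies above it without being called.

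Genes of the hypoxia response stood lower in the spheroids than in flat EpiLCs. Of 20 genes in the list 18 were compared and 15 of them were below both EpiLC libraries, beside 3715 of 11203 genes. Of the 18 compared, 9 were called lower and 0 higher, beside 1.16% of all genes called lower. The median difference of the list was -0.97 on the log2 scale, beside 0.0088 for all genes compared. The 9 genes were Vegfa, Bnip3, Pdk1, Egln3, Ddit4, Adm, P4ha1, Ero1l and Ak4.

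Vegfa, the angiogenic growth factor, was at 9.06 and 11.4 FPKM in EpiLCs and at 1.82 on day 2, 3.99-fold lower on the FPKM + 1 scale that all folds here use. P4ha1, a prolyl hydroxylase of collagen, was at 6.14 and 8.26 in EpiLCs and at 1.01 on day 2, 4.08-fold lower. Ddit4, an inhibitor of mTORC1, was at 79.3 and 112 in EpiLCs and at 23.0 on day 2, 4.03-fold lower. In each of the 3 genes both EpiLC libraries stood well above the spheroid library. Ak4, an adenylate kinase of mitochondria, was at 13.9 and 13.1 in EpiLCs and at 3.23 on day 2, 3.42-fold lower. The mitophagy receptor Bnip3 was at 38.5 and 75.2 in EpiLCs and at 11.8 on day 2, and its EpiLC libraries lay further apart than those of Ak4. Egln3, a prolyl hydroxylase that acts on HIF, was at 10.6 and 13.7 in EpiLCs and at 3.31 on day 2. The pyruvate dehydrogenase kinase Pdk1 was at 22.3 and 32.1 against 10.6, just past the threshold with a distance of -1.01. Adm, a vasodilator peptide, was low in all 3 libraries, at 1.69, 2.81 and 0.16 FPKM.

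Other members of the list lay nearer to the EpiLC libraries or within their range. The glucose carrier Slc2a1 was at 150 and 166 FPKM in EpiLCs and at 92.7 on day 2, a distance of -0.69, and Egln1, the main oxygen sensor among the prolyl hydroxylases, was at 8.04 and 9.35 against 6.92. Higd1a, a mitochondrial protein, was the 1 member above both EpiLC libraries, at 20.0 against 13.2 and 17.3. Ndrg1 and Ankrd37 lay within the EpiLC range, and Car9 and Pfkfb4 did not reach 1 FPKM. Among enzymes of glycolysis 1 of 20 compared was called lower, beside 1.16% of all genes. This was Aldoa, an aldolase, at 1105 and 820 FPKM in EpiLCs and 408 on day 2. The glycolysis list had a median of -0.45. Pgk1 was at 270 and 416 against 175, and Gapdh, at 1962, lay between the EpiLC libraries at 1596 and 2016. Further called genes that belong to no list used here were picked after their values were seen. Ndufa4l2, a mitochondrial protein induced by HIF, was at 3.19 and 4.35 FPKM in EpiLCs and at 0.311 on day 2, and Epo, the hormone of red cell formation, was at 7.12 and 9.60 against 1.78.

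HIF binds the core letters ACGTG, and these letters were looked for on both strands (also as CACGT) in the 250 bases before the first start site that RefSeq lists for each gene on GRCm38.p6. The promoters below are shown because they belong to called genes and hold the letters, which stand in capitals; the run is read 5′ to 3′ on the gene's strand and ends at the base before the start site.
Bnip3, chr7:138909507-138909756, minus strand: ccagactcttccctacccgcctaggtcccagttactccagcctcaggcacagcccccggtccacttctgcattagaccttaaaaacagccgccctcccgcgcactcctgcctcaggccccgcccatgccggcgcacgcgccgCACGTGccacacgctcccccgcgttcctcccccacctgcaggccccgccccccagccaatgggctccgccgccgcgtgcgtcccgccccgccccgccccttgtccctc
Egln3, chr12:54203875-54204124, minus strand: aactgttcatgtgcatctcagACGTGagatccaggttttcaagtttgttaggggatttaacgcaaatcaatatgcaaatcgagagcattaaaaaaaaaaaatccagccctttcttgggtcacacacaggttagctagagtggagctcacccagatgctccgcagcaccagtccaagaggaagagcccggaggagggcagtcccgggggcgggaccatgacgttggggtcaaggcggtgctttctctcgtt
Ddit4, chr10:59951771-59952020, minus strand: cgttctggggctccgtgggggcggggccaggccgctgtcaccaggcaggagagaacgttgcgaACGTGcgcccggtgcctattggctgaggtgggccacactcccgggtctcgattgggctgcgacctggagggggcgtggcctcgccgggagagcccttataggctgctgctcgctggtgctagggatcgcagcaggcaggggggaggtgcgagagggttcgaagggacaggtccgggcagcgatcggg

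In Bnip3 the overlapping forms merge into 1 palindrome whose first base lies 108 bases before the start site. The match began 229 bases before the start of Egln3 and 187 bases before that of Ddit4. Of the 9 called hypoxia genes 5 held the letters (Bnip3, Ddit4, Egln3, Ero1l, listed as Ero1a by RefSeq, and P4ha1), and of 7 hypoxia genes compared but not called whose promoter was listed, 4 held them. Over 27025 promoters of the same length 16.6% held the letters. The letters were chosen after the values were seen, and a match is a description of the sequence only.

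Genes that Atf4 switches on were also lower in the spheroids. All 26 genes of the list on the amino acid response and on endoplasmic reticulum (ER) stress were compared. Of these, 18 were below both EpiLC libraries, 8 were called lower and 0 higher, beside 3715 of 11203 genes below both libraries and 1.16% called lower over all genes. The list's median difference was -0.77. Without EpiLCs replicate 1 the count called lower was 13, and without EpiLCs replicate 2 the median was -0.49. The called genes were Asns, Chac1, Trib3, Ddit3, Atf5, Shmt2, Mthfd2 and Pck2.

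Trib3, a pseudokinase that restrains Akt and Atf4 itself, was at 47.7 and 64.2 FPKM in EpiLCs and at 10.8 on day 2, 4.82-fold lower. Chac1, which degrades glutathione, was at 73.3 and 72.7 in EpiLCs and at 17.2 on day 2, 4.07-fold lower. Pck2, the mitochondrial phosphoenolpyruvate carboxykinase, was at 32.4 and 44.8 in EpiLCs and at 7.96 on day 2, 4.42-fold lower. The spheroid library lay far below both EpiLC libraries in each. Ddit3, the proapoptotic factor CHOP, was at 8.95 and 9.15 against 2.12. Asns, asparagine synthetase, was at 156 and 217 against 62.3, a distance of -1.31. Shmt2 and Mthfd2, enzymes of folate-dependent 1-carbon metabolism in mitochondria, were at 118 and 133 against 55.2 and at 130 and 143 against 52.8. Atf5, a factor related to Atf4, was at 21.0 and 20.7 against 7.27. Atf4 mRNA itself was at 173 and 201 in EpiLCs and at 89.5 on day 2, a distance of -0.94 that stayed under the threshold.

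Within this list the chaperones of the ER lay within or above the EpiLC range. Hspa5 (BiP), the main ER chaperone, was at 134 FPKM on day 2 and at 86.4 and 149 in EpiLCs. Hsp90b1 was at 126 against 102 and 143. Pdia4 was at 70.2 against 49.8 and 64.4, and Creld2 at 38.9 against 25.9 and 26.8, a distance of 0.52 above the range. The amino acid carrier Slc7a3 lay within the range, and Slc3a2 had a distance of -0.10. Outside the list, and picked after their values were seen, Stc2, a secreted glycoprotein, was at 10.4 in both EpiLC libraries against 3.57, Gdf15, a stress hormone, at 4.07 and 5.87 against 1.26, and Gpt2, a mitochondrial alanine transaminase, at 41.3 and 41.7 against 17.6. Nupr1, a small stress-induced chromatin protein among the 15 largest differences in this direction, was at 13.6 and 15.8 against 1.99.

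The site that Atf4 shares with its C/EBP partners reads TGATGNAA, or TTNCATCA on the other strand. It was looked for in the same way, and the promoters below are those of called genes that hold it, with the site in capitals.
Chac1, chr2:119350992-119351241, plus strand: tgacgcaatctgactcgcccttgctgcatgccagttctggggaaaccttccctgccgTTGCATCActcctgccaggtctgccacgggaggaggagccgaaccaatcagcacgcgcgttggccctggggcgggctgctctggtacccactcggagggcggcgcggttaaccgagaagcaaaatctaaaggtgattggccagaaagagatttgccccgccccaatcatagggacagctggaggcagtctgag
Asns, chr6:7693210-7693459, minus strand: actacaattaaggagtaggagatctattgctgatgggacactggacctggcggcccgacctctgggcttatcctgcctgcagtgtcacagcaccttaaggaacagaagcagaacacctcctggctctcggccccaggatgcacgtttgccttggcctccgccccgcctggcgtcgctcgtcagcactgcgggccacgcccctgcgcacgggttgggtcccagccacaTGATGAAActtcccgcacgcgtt
Pck2, chr14:55540016-55540265, plus strand: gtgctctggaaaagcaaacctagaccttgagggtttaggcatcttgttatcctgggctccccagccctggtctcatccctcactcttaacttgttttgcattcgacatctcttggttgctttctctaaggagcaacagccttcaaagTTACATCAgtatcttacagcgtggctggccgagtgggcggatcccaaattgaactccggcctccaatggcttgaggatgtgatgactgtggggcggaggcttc

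The site began 193 bases before the start of Chac1, 23 before that of Asns and 103 before that of Pck2. Of the 8 called genes these 3 held it, of 15 list members compared but not called 2 did (Herpud1 and Slc7a11), and over all 27025 promoters 3.53% did. The letters were again chosen after the values were seen, and those of Atf5, Ddit3, Mthfd2, Shmt2 and Trib3 do not hold them in this window.

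**Figure D2:**
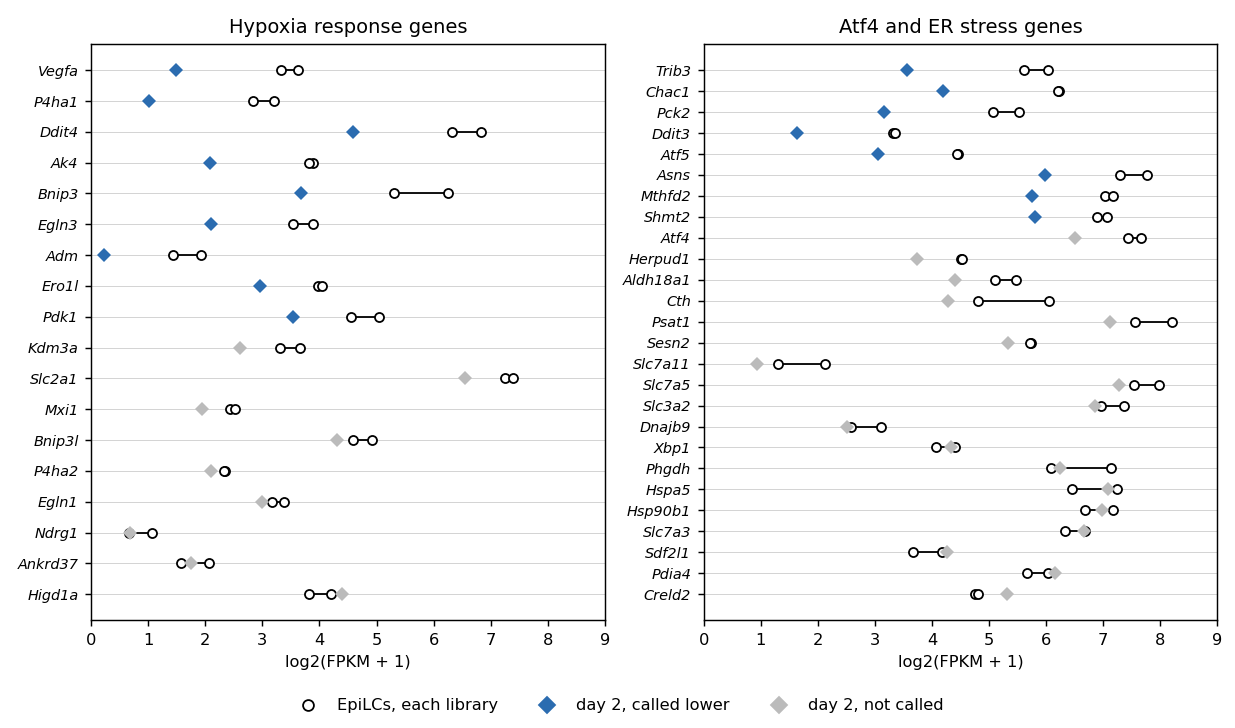
Each row is 1 gene compared, with open circles for the 2 EpiLC libraries joined by a line and a diamond for Epiblastoids day 2, on the axis log2(FPKM + 1). Blue diamonds mark the 9 hypoxia and 8 Atf4 and ER stress genes called lower, all left of both circles, while grey diamonds near the bottom fall inside or above the EpiLC range.

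Genes of adhesion to a surface went in both directions. Among 17 integrins and matrix receptors compared, 9 were below both EpiLC libraries and 6 above, 2 were called lower and 1 higher, and the median difference was -0.42, beside 1.16% called lower and 0.848% higher over all genes. Itga3, the alpha chain of a laminin receptor, was at 36.8 and 29.7 FPKM in EpiLCs and at 9.96 on day 2, 3.12-fold lower. Pxn (paxillin), a scaffold of focal adhesions, was at 8.73 and 6.60 against 1.95. Itgb1, the common beta chain, was at 55.0 and 62.5 against 31.9, and Vcl (vinculin) at 41.8 and 39.6 against 23.7, both below the range and not called. Sdc4, a heparan sulfate proteoglycan that works with integrins, went the other way at 29.9 against 10.7 and 8.67, 2.89-fold higher. In the list of 21 contractile genes compared, 11 were below both EpiLC libraries and 1 was called lower. This gene was Myl9, a myosin light chain, at 11.6 and 27.3 FPKM in EpiLCs and 4.49 on day 2, and the gap between its EpiLC libraries was itself wide. Of 15 basement membrane genes compared 8 were above the range, 1 below and 0 called, with Col4a1, a collagen IV chain, at 5.32 against 3.64 and 3.65. Over all 11203 genes compared, 3941 were above the range and 3715 below.

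Immediate early genes respond within minutes to serum, growth factors and mechanical stress. Of 13 compared, 11 were below both EpiLC libraries, 0 above, and 2 were called lower, with a median of -0.72, beside 3715 of 11203 genes below and 1.16% called lower over all genes. Dusp1, a phosphatase of MAP kinases, was at 24 and 25.5 FPKM in EpiLCs and at 9.03 on day 2. Atf3, which is also a target of Atf4, was at 3.84 and 5.86 against 0.72. Egr1 was at 12.4 and 2.14 in EpiLCs and at 0.83 on day 2, so the EpiLC libraries were much further apart than the spheroid was from the nearer of them.

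No member of the junction and polarity lists passed the threshold. Outside these lists Cdh24, a cadherin, was called higher, at 4.83 and 4.21 FPKM in EpiLCs and at 10.7 on day 2. The desmosome protein Kazn, given below, was called higher too. Of 16 claudin and tight junction genes compared 0 were called in either direction, and the same held for 29 genes of apical polarity and lumen and for 25 genes of adherens junctions and desmosomes. With 0.848% called higher and 1.16% lower over all genes, counts of 0 in lists of this size do not set them apart, and differences to the EpiLC mean ran from -0.92 to 1.07 in the apical list. Cldn6, a claudin of early epithelia, was at 93.3 and 105 FPKM in EpiLCs and at 159 on day 2, 1.60-fold higher and above both libraries with a distance of 0.59, under the threshold. Cldn4 was at 19.9 and 31.9 against 13.7, and Cldn7 lay within the EpiLC range. The tight junction scaffold Tjp1 was at 25.9 and 20.5 against 19.4. Cdh1 (E-cadherin) was at 199 and 176 against 243. Ezr (ezrin), which links the apical membrane to actin, was at 84.0 and 93.9 against 70.5, its relative Msn (moesin) at 56.8 and 56.1 against 84.3, and Podxl, a sialomucin of the luminal membrane, at 14.4 and 11.7 against 21.6. Golga2 (GM130), a protein of the cis-Golgi, was at 2.79 and 2.56 against 4.83.

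Of 18 naive genes 10 were compared, 7 were below both EpiLC libraries and 3 were called lower, with a median difference of -0.57, beside 3715 of 11203 genes below and 1.16% called lower over all genes. Without EpiLCs replicate 1 the count was 5 and the median -0.87. Esrrb, a naive nuclear receptor, was at 1.91 and 1.41 FPKM in EpiLCs and at 0.05 on day 2, and Klf2 at 3.06 and 2.94 against 0.91. These values are small beside mESCs, in which Esrrb was at 262 and 121 and Klf2 at 223 and 169. The third gene, Gbx2, a homeobox factor, was second to Sarnp among the lower genes at 10 FPKM or more, with a distance of -2.48. It was at 16.4 and 13.8 FPKM in EpiLCs and at 1.65 on day 2, 6.07-fold lower, whereas mESCs were at 8.59 and 6.69, so that EpiLCs stood above mESCs for this member. Nanog was above both EpiLC libraries on day 2 without being called, at 13.9 against 8.60 and 8.0, and Dppa5a lay within the EpiLC range. Of 19 formative genes 1 was called, Fgf8, which was higher, beside 0.848% of all genes called higher. The formative list's median was -0.0085. Dnmt3a, a DNA methyltransferase, came nearest to being called lower, at 117 and 107 against 56.0, and Sall2, a zinc finger factor, to being called higher, at 75.8 against 43.9 and 30.8. Of 10 core pluripotency genes 0 were called. Sall4 was at 102 against 51.7 and 29.1, and Sox2 at 26.3 against 24.8 and 22.0.

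The list of bone morphogenetic protein (BMP) and Id genes, which holds ligands and an antagonist as well as targets, had the most genes called higher on day 2. Of 9 compared 3 were called higher and 0 lower, beside 0.848% of all genes called higher, and the median difference was 0.44. Id1, an inhibitor of basic helix-loop-helix factors, was at 0.91 and 1.04 FPKM in EpiLCs and at 8.65 on day 2, 4.89-fold higher. Id3, of the same family, was at 2.25 and 5.91 in EpiLCs and at 15.1 on day 2, 3.17-fold higher. Msx1, a homeobox factor, was at 0.45 and 0.56 against 2.21. The day 2 library was the highest of the 3 in each, while Id2, at 5.08, lay between 4.51 and 5.63, and the antagonist Bambi lay within the range. Among the ligands, Bmp4 was at 1.53 against 1.02 and 0.72 and Bmp7 at 1.03 against 0.24 and 0.30. Of 20 genes of primed cells and the primitive streak 6 were compared, of which 4 were above both EpiLC libraries and 1 below, and Eomes alone was called, higher. Cdh2 (N-cadherin), the member below the range, was at 0.82 against 1.88 and 2.2. Fgf8, from the formative list and a ligand of the primitive streak, was at 9.72 against 3.11 and 1.03, 3.49-fold higher, and Eomes, a T-box factor, at 5.72 against 1.80 and 2.09, 2.28-fold higher. T (brachyury) stayed under 1 FPKM in all 3 libraries at 0.75, 0.17 and 0.26. Of 11 Wnt targets compared 8 were above both EpiLC libraries and 0 were called, with a median of 0.58, beside 3941 of 11203 genes above and 0.848% called higher over all genes, and Wnt3 was at 5.15 against 3.22 and 1.13. Nodal was at 42.3 against 25.7 and 17.9.

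**Figure D3:**
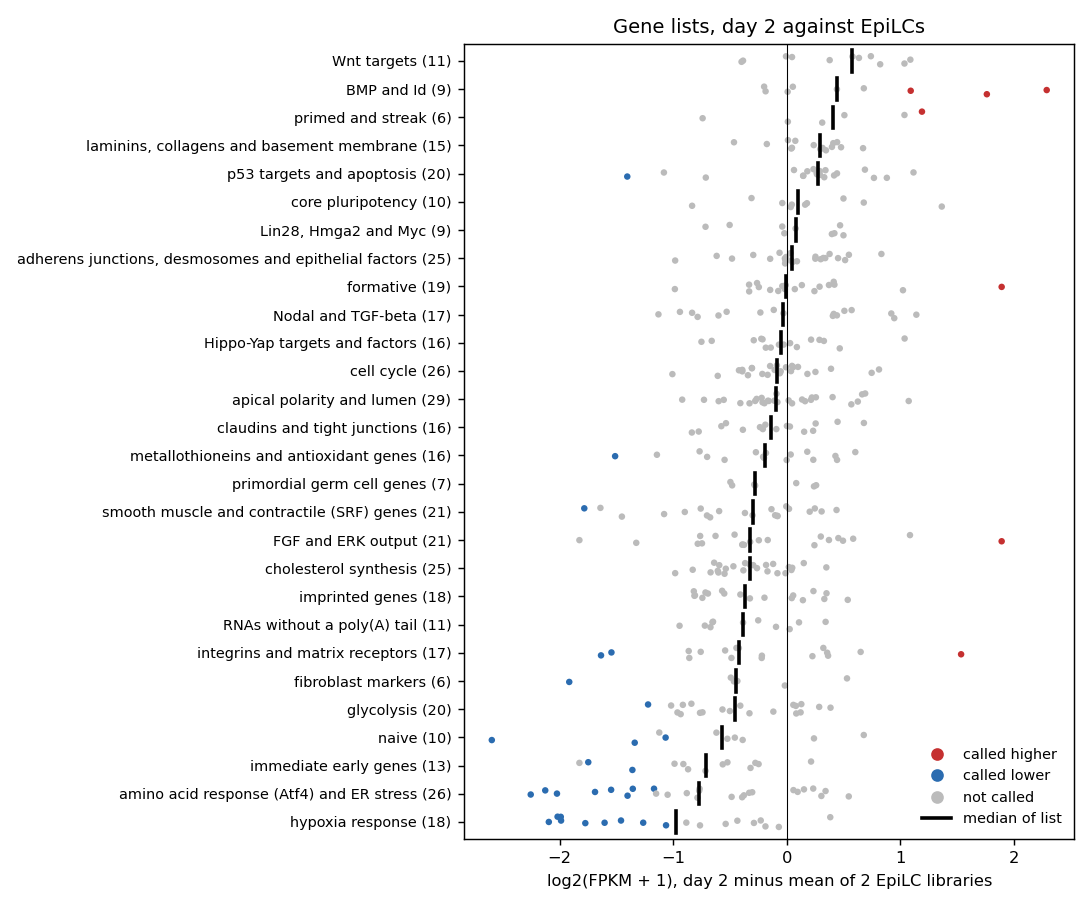
Each point is 1 gene of a list with at least 6 genes compared (number in brackets), placed by its log2(FPKM + 1) on day 2 minus the mean of the 2 EpiLC libraries, and a black bar marks the list's median. The lists run from Wnt targets at 0.58 down to hypoxia response at -0.97, and the naive, immediate early, Atf4 and hypoxia lists fill the lower end.

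The 15 genes most above EpiLCs, among those at 10 FPKM or more, were a mixed group. Dab2ip, a GTPase-activating protein for Ras, led with 14.9 FPKM on day 2 against 1.00 and 1.12 in EpiLCs, 7.72-fold higher. Bcas3 followed at 11.9 against 2.01 and 2.83, and Snhg8, a host of a small nucleolar RNA, at 34.4 against 7.27 and 10.7. Yipf2 and Ergic1, which act between ER and Golgi, were at 28.5 against 4.71 and 9.54 and at 49.3 against 15.2 and 19.4. Srsf9, a splicing factor, was at 144 against 59.0 and 55.5. Ppp1r14b, an inhibitor of protein phosphatase 1, was at 267 against 79.7 and 108. Sema6a, a transmembrane semaphorin, was at 27.9 against 10.9 and 6.31, and Kazn, a protein of desmosomes, at 11.6 against 3.93 and 3.22. Znrf1, a ubiquitin ligase, was at 23.0 against 7.96 and 3.85.

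Short transcripts were common among the higher genes. The respiratory chain subunits Atp5k and Uqcrh were at 173 against 33.6 and 61.3 and at 228 against 65.5 and 87.7, and the ribosomal protein gene Rpl37 at 781 against 205 and 314. Of 80 called higher genes with an annotated length 21 had a longest transcript under 1000 bases, which is 26.3%, beside 6.67% of those called lower and 6.81% of all genes compared. Among genes under that length 3.08% were called higher, beside 0.634% of longer genes. The same short genes also differed more between the EpiLC libraries, with a median spread of 0.54 on the log2 scale beside 0.27 for longer genes. Small RNA, histone, predicted or pseudogene names made up 22 of the 95 higher and 1 of the 130 lower genes. Reads of such copies and of ribosomal protein genes can be shared with near-identical loci, so their values are uncertain, and the part of transcript length in the higher genes was not tested.

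The remaining genes far below EpiLCs were also mixed. Sarnp, a nuclear mRNA export factor, had the largest distance at 52.4 and 89.0 FPKM in EpiLCs against 6.72 on day 2, 9.29-fold lower. Mta3, a subunit of the NuRD complex, was at 69.4 and 41.8 against 7.61, 6.57-fold lower. It also varied widely within other groups described below, at 5.32 and 30.5 FPKM in EpiSCs and at 33.8, 4.84 and 31.6 in fPSCs. Nup62, a nuclear pore protein, was at 91.7 and 117 against 21.5, and Tmed7, a cargo receptor of the ER, at 46.0 and 44.5 against 11.1. Gadd45a, a stress gene of growth arrest, was at 17.7 and 19.9 against 3.71. Upp1, uridine phosphorylase, was at 44.9 and 32.4 against 8.20, and Fam60a, a subunit of the Sin3 complex, at 121 and 123 against 34.4. Mt2, a metallothionein, was at 615 and 496 against 193, and its relative Mt1, at 441 and 354 against 178, missed the threshold with a distance of -0.98. Pmaip1 (Noxa), a proapoptotic target of p53, was at 40.0 and 39.9 against 14.5, whereas Phlda3, another target of p53, was at 82.8 against 31.8 and 44.6.

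The libraries of day 3 and day 4, 1 each, show where the day 2 levels stood later. They were set against the same EpiLC libraries, so the differences share their controls. The hypoxia list had a median difference to the EpiLC mean of -0.97 on day 2, -1.23 on day 3 and 0.29 on day 4. Vegfa had 2.93 FPKM on day 3 and 10.6 on day 4, and Ddit4 had 23.2 and 114. Bnip3 had 14.7 and 65.5. For these 3 genes the first 2 spheroid libraries were low and that of day 4 was within or above the EpiLC values. The Atf4 and ER stress list had medians of -0.77, -0.40 and -0.32, with Chac1 at 21.5 and 24 and Trib3 at 13.5 and 21.7 on days 3 and 4, still below both EpiLC libraries. The naive list had medians of -0.57, -1.32 and -1.98. Id1 was at 2.30 on day 3 and 49.2 on day 4, Id3 at 17.6 and 35.7, Fgf8 at 36.9 and 201 and Eomes at 34.4 and 145. Cldn6 was at 126 and 223. Some of the largest distances of day 2 did not recur. Sarnp was at 74.1 and 72.4 on days 3 and 4, between the EpiLC libraries, and Nup62 was at 84.2 and 93.1. Pck2 was at 30.7 and 25.5, and Sdc4, high on day 2, was at 5.49 and 8.86. The day 3 library stood apart from those of days 2 and 4 in RNAs without a poly(A) tail, with a list median of 5.24 above EpiLCs. On day 2 that median was -0.38, with Hist1h2ap at 1.74 FPKM against 2.56 and 4.23, and at 491 on day 3. Both mESC libraries were high in this list too, with medians of 6.19 and 7.65 on the log2(FPKM + 1) scale beside 6.27 on day 3. In the tests given below, 9 of 10 such RNAs were lower in EpiSCs than in mESCs, and 9 in fPSCs. The shares over all genes were 31.2% and 32.5%.

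**Figure D4:**
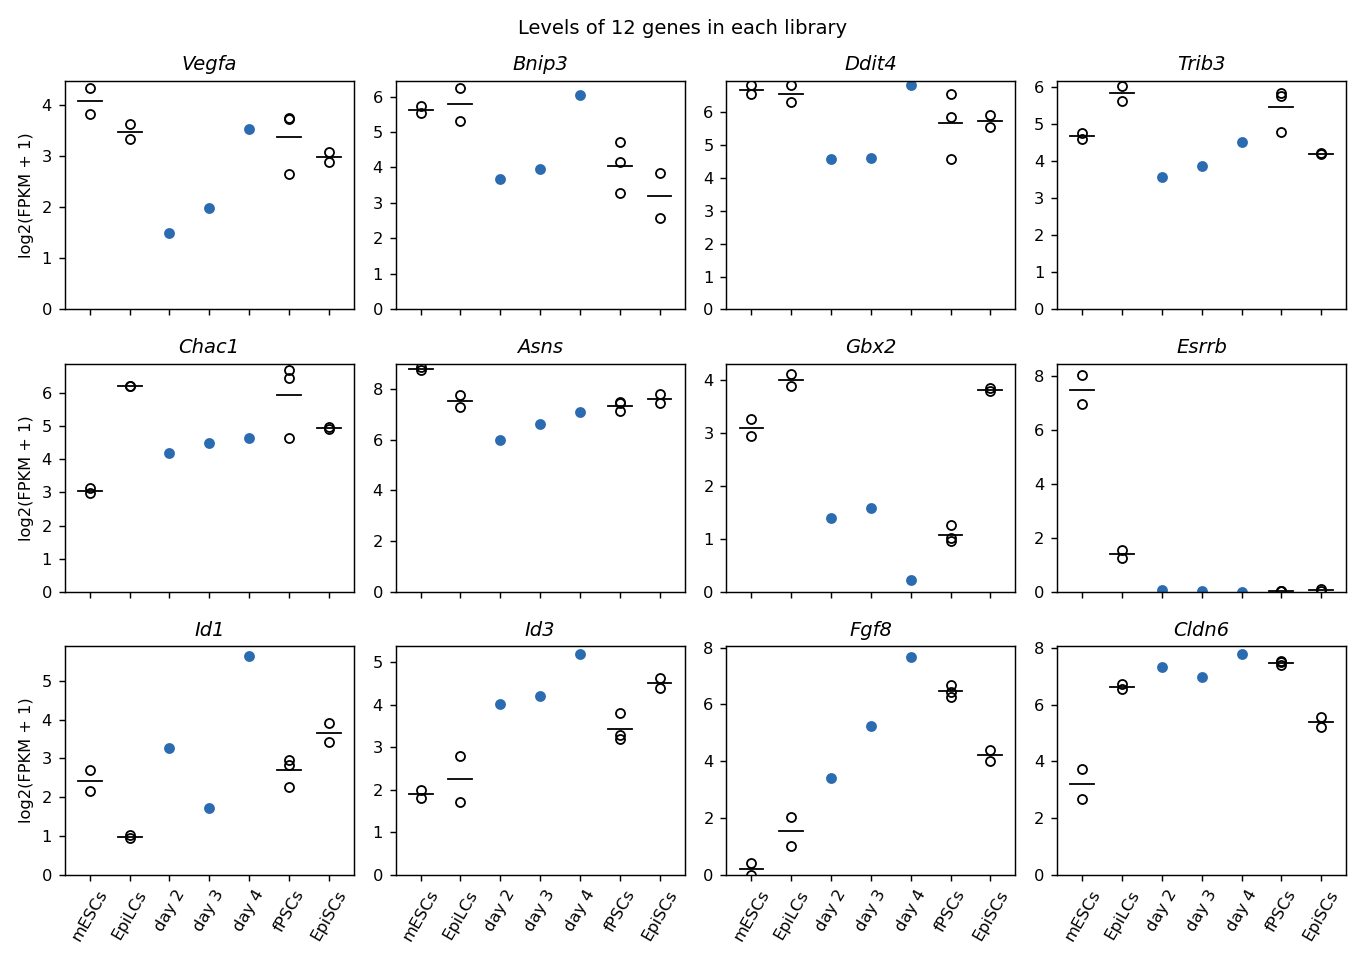
Points are single libraries and the y axis is log2(FPKM + 1) of 12 genes in mESCs (2), EpiLCs (2), Epiblastoids on days 2, 3 and 4 (1 each, filled), fPSCs at passages 10, 20 and 30 (3) and EpiSCs (2), with bars at group means. Vegfa, Bnip3 and Ddit4 are low on days 2 and 3 and back at EpiLC levels on day 4, while Gbx2 and Esrrb stay low and Id1, Id3 and Fgf8 are above EpiLCs on day 2.

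The genes chosen on day 2 were then examined in libraries that the choice did not use, mESCs (2), EpiSCs (2) and fPSCs, the formative stem cells grown on from Epiblastoids (3 passages), with limma over 12084 genes. EpiSCs and fPSCs were kept with Activin A (20 ng/ml), bFgf2 (12 ng/ml) and the Wnt inhibitor XAV939 (5 uM), and EpiSCs also with KSR (15%). The paper's methods put mESCs in 2i/LIF medium and EpiSCs on fibroblast feeders. All 15 fibroblast genes tested were higher in EpiSCs than in mESCs, and 14 were lower in fPSCs than in EpiSCs. Medium, feeders and cell state cannot be told apart in these contrasts. The thresholds were 0.05 for the adjusted p (Benjamini-Hochberg) and 1.5 for the fold. The fPSC libraries are passages 10, 20 and 30, and nothing in the labels says that replicates came from separate cultures, so p-values measure the spread between these libraries, which may be technical. Of the 130 genes lower on day 2, 128 were tested. Between fPSCs and mESCs 59 of them were lower in fPSCs (46.1%) and 25 higher (19.5%), beside 32.5% and 20.2% of all genes tested. Between EpiSCs and mESCs 55 were lower (43.0%) and 34 higher (26.6%), beside 31.2% and 27.2%. Between fPSCs and EpiSCs 35 were lower in fPSCs (27.3%) and 14 higher (10.9%), beside 21.9% and 11.2%. Genes read in mESCs alone were also tested, and against mESCs these can only come out lower. Dazl, not called on day 2, is an example, at 20.9 and 36.4 FPKM in mESCs and 0 in EpiSCs and fPSCs. Whether such genes account for the larger shares lower against mESCs was not tested, so no excess is read from them. The counts lower against mESCs fell to 37 and 30 without mESCs replicate 1 and to 38 and 29 without mESCs replicate 2, where 109 genes were tested. The 14 higher in fPSCs than in EpiSCs fell to 9 and 2 without EpiSCs replicates 1 and 2 and to 8 without fPSCs replicate 1. Of the 95 genes higher on day 2, 89 were tested. Of these, 34 were higher in fPSCs than in mESCs (38.2%) and 26 lower (29.2%), beside 20.2% and 32.5% of all genes tested. Against mESCs, EpiSCs were higher in 39 (43.8%) and lower in 31 (34.8%), beside 27.2% and 31.2% of all genes tested. Between fPSCs and EpiSCs 18 passed in each direction (20.2%), beside 11.2% and 21.9% of all genes. Without EpiSCs replicate 2 only 8 passed in each, without EpiSCs replicate 1 there were 9 lower, and without fPSCs replicate 2 there were 11 higher.

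Among named members, Gbx2 was at 1.13 FPKM ± 0.251 (SD, n = 3) in fPSCs and at 13.2 ± 0.377 (SD, n = 2) in EpiSCs, a log2 difference of -2.74 ± 0.17 (SE, limma adjusted p = 1.9e-05). Fgf8 was at 87.5 ± 13.5 (SD, n = 3) in fPSCs and at 0.165 ± 0.233 (SD, n = 2) in mESCs, a log2 difference of 6.25 ± 0.20 (SE, limma adjusted p = 4.23e-07). Id3 was higher in fPSCs than in mESCs by 1.53 ± 0.21 on the log2 scale (SE, limma adjusted p = 0.000459). Between fPSCs and EpiSCs it was lower in fPSCs, at -1.08 ± 0.21 (SE, limma adjusted p = 0.00506). Id1 did not pass between fPSCs and mESCs, at 0.262 ± 0.279 (SE, limma adjusted p = 0.443). It was lower in fPSCs than in EpiSCs, at -0.971 ± 0.279 (SE, limma adjusted p = 0.0265). Sdc4, called higher on day 2, was lower in fPSCs than in mESCs, with a log2 difference of -2.90 ± 0.16 (SE, limma adjusted p = 4.38e-06). Cldn6 was at 179 ± 7.63 (SD, n = 3) in fPSCs, 41.4 ± 7.10 (SD, n = 2) in EpiSCs and 8.88 ± 4.94 (SD, n = 2) in mESCs, and fPSCs were higher than EpiSCs by 2.09 ± 0.28 (SE, limma adjusted p = 0.000829). As a list, the 18 hypoxia genes tested had 8 lower and 0 higher in fPSCs than in mESCs and 10 lower and 2 higher in EpiSCs than in mESCs, beside 32.5% lower and 20.2% higher of all genes for fPSCs and 31.2% and 27.2% for EpiSCs. The 26 Atf4 and ER stress genes had 14 higher and 7 lower in fPSCs than in mESCs, against the same shares. All 18 naive genes were lower in fPSCs than in mESCs, and 17 were lower in EpiSCs. Such genes are named for their high levels in naive cells, so the list largely fixed these counts beforehand and nothing is read from them.

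Histone marks and DNA methylation were available for fPSCs at passage 10, as 1 track each. H3K4me3 marks active promoters and H3K27me3 those held silent by Polycomb. Within 1000 bases of the start site the median H3K4me3 was 4.91 RPKM over the 9993 genes compared that could be placed, 3.58 over 80 genes higher on day 2 and 4.23 over 120 genes lower. The median H3K27me3 was 0.193, 0.402 and 0.322 RPKM, and the median methylated fraction 0.192, 0.256 and 0.250. Both sets of called genes had less H3K4me3 and more H3K27me3 and methylation than all genes, by margins within the quartiles of all genes, which ran from 3.05 to 7.09 RPKM for H3K4me3 and from 0.096 to 0.451 for H3K27me3. Within 2500 bases the lower genes no longer stood below all genes in H3K4me3 (3.11 beside 3.08) nor above them in methylation (0.488 beside 0.498). The lists differed among themselves. The 9 called hypoxia genes had a median H3K4me3 of 6.22 RPKM and the 8 called Atf4 genes 7.28, while the 3 called naive genes had 2.92 and a median H3K27me3 of 1.29. Gbx2 carried 5.51 RPKM of H3K27me3 at 2.92 of H3K4me3. Id1 and Id3 had 2.54 and 2.97 of H3K27me3 beside 6.90 and 7.59 of H3K4me3. Esrrb had a methylated fraction of 0.822 and Fgf8 one of 0.0269.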

How the data were processed

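Bulk RNA was measured in 19 libraries. The authors deposited FPKM per gene, made with Cufflinks 2.1.1 from reads that, per the study's methods, passed cutadapt 1.11 and were then placed by TopHat2 2.1.1. The authors deposited the H3K4me3 and H3K27me3 signal of fPSCs as RPKM (Trim Galore 0.4.2, Bowtie2 2.2.2) and DNA methylation as the fraction of methylated reads (BS-Seeker2), all on mm9 in 100-base steps. Per the methods, ChIP-seq replicates were merged before later steps, and the files do not state whether each track is such a merge. The read counts behind FPKM and fractions were not used here, so depth is unknown and no counting interval is given.

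From the 23608 deposited entries, 4 with repeated names were left out. Values were compared as log2(FPKM + 1) for genes whose highest value over the 3 libraries was 1 FPKM or above. The distance is that of day 2 to the nearer EpiLC library, and the difference is that to the EpiLC mean. Groups came from the labels. Named genes were the 15 per direction with the largest distance at 10 FPKM or more (small RNA, histone, predicted and pseudogene symbols only counted), up to 4 per list with the largest distance, and genes the study names for Epiblastoids. Other list members and the genes said to be picked later were named after their values were seen. The members and the 33 lists were chosen with earlier results of these data known. The mitochondrial transcripts of 1 list are not analysed here. Tests between mESCs, EpiSCs and fPSCs used limma 3.58.1 (R 4.3.3) with a moderated variance trend over all genes and Benjamini-Hochberg adjustment, and the fit was tested on simulated data. Tables were handled with python 3.11.15, pandas 2.3.3 and numpy 2.4.6. Start sites for the mm9 tracks and transcript lengths came from a GENCODE annotation of the same assembly (NCBIM37), and promoter sequences from RefSeq on GRCm38.p6, both matched by symbol. No coordinates were converted between builds. Alternatives were another pseudocount, filter, fold, scaling and window, the EpiLC mean in place of the range, each replicate left out, and the replicate number as a block. A length limit and the removal of small RNA, histone, predicted and pseudogene symbols were added after the data were seen.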

Additional observations from a re-analysis of the deposited data

How the results depend on the processing

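With 1 spheroid library the day 2 comparison has no error of its own, and its counts move with the setting. The 95 higher and 130 lower genes became 214 and 268 with a pseudocount of 0.1, 42 and 82 with a filter at 10 FPKM, 205 and 206 by the difference to the EpiLC mean, and 494 and 500 at a fold of 1.5. With transcripts of at least 1000 bases, a setting chosen after seeing the data, 59 were higher. Without 1 EpiLC replicate 302 to 338 were higher and 223 to 396 lower, since the range then has no width. In the same runs the Atf4 list had 8 to 13 genes lower and a median of -0.98 to -0.49, the naive list 4 to 5 genes and -0.87 to -0.53, and the BMP and Id median ran from 0.32 to 0.56. That last median was 0.77 with a pseudocount of 0.1. None of these lists changed sign.

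In the limma comparisons, leaving out 1 library gave 29 to 56 genes lower on day 2 that were lower in EpiSCs than in mESCs, and 37 to 61 lower in fPSCs than in mESCs. Between fPSCs and EpiSCs, 2 to 15 of the genes lower on day 2 were higher in fPSCs, and 9 were with no filter on low values. Of the genes higher on day 2, 8 to 22 were higher and 8 to 18 lower in fPSCs. The cause was not tested. With the replicate block in the comparison of EpiSCs with mESCs, 39 of the genes higher on day 2 were higher and 31 lower, and 36 and 55 of those lower on day 2. Same-numbered libraries deviated with r = -0.21 across 11842 genes, so the numbers are not taken as pairs. Within 2500 bases of the start site the higher genes had medians of 2.41 RPKM (H3K4me3), 0.566 RPKM (H3K27me3) and 0.530 (methylated fraction), and the lower genes 3.11, 0.399 and 0.488.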
